A study of Homo sapiens with 6 samples.

Results

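The genes described here are the hosts of small RNAs, long transcripts whose introns or exons carry small nucleolar RNAs (snoRNAs) or microRNAs. They were chosen by name. Every row called SNHG with a number or GAS5 was taken as a snoRNA host. Every row called MIR, then digits or capital letters, then HG was taken as a microRNA host, with MIR210HG left out. Names with a hyphen do not match, so MIR4435-2HG was not a member. The rule found 102 genes among the 60419 in the deposited table, 29 snoRNA hosts and 73 microRNA hosts. RNA came from 12Z, an immortalised line of human endometriotic cells, wild type per the labels and grown in medium with 10% charcoal-stripped fetal bovine serum. One group received Myrrh extract at 100 µg/mL in DMSO for 12 h, and the other received DMSO. There were 3 libraries per group, prepared with a TruSeq RNA kit from 1.5 µg of total RNA each, and the comparison asks which genes respond to the extract. It is 1 cell line at 1 dose and 1 time. Nothing in the labels says whether the libraries came from separate cultures, so the p-values measure the spread between these libraries, which may be technical.

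A host transcript is spliced, and the small RNA is cut from the removed intron or, for many microRNAs, from a hairpin in the primary transcript. snoRNAs guide chemical changes on ribosomal RNA (C/D box RNAs guide 2′-O-methylation, H/ACA box RNAs pseudouridylation), and the related scaRNAs act on spliceosomal RNA in Cajal bodies. Many snoRNA host genes start transcription at a run of pyrimidines, as ribosomal protein genes do, and many of their spliced transcripts are bound by ribosomes and degraded by nonsense-mediated decay. microRNAs repress messenger RNAs that pair with bases 2 to 8 of the mature RNA, the seed.

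The sequences that set the hosts apart are the mature microRNAs they carry. Of the 29 microRNA hosts that could be tested, 6 carry a microRNA with the let-7 seed GAGGUAG, in capitals in the lines that follow, and their transcripts did not move together. The sequences are RefSeq's (GRCh38.p14), written 5′ to 3′, and 1 microRNA is shown for each host.
MIRLET7IHG, hsa-let-7i-5p, chr12:62603691-62603712, plus strand: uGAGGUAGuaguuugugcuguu
MIR4500HG, hsa-miR-4500, chr13:87618671-87618687, minus strand: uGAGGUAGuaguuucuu
MIR99AHG, hsa-let-7c-5p, chr21:16539838-16539859, plus strand: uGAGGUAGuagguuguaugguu
MIRLET7BHG, hsa-let-7b-5p, chr22:46113691-46113712, plus strand: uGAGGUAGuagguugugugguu
MIR4458HG, hsa-miR-4458, chr5:8460933-8460951, plus strand: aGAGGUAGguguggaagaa
MIR100HG, hsa-let-7a-5p, chr11:122146568-122146589, minus strand: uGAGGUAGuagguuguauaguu

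For snoRNA hosts the bases around the transcription start are shown. Some have a C followed by 3 or more T there and others do not. Other runs of pyrimidines were not searched for and occur in windows without capitals, as in SNHG7. The windows run 15 bases before to 25 bases after the RefSeq start and hold 4 hosts whose transcripts rose and 2 that fell. They do not represent the class. Of 23 tested snoRNA hosts with a RefSeq promoter 5 have CTTTT there. GAS5, SNHG1 and SNHG17, which also rose, have no CTTT there. Capitals mark a C followed by 3 or more T within 10 bases of the start, where there is one.
SNHG29, chr17:16438972-16439011, plus strand: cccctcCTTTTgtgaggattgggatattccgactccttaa
SNHG32, chr6:31834901-31834940, plus strand: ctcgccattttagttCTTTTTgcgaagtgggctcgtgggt
SNHG5, chr6:85678709-85678748, minus strand: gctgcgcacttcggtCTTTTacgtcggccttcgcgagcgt
SNHG7, chr9:136728160-136728199, minus strand: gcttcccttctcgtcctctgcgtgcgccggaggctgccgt
SNHG3, chr1:28505928-28505967, plus strand: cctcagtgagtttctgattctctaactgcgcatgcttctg
SNHG19, chr16:2155334-2155373, minus strand: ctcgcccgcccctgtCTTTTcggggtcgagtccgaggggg

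The libraries held 22454783 to 24531493 estimated counts in the Myrrh group and 22592816 to 27588151 in the DMSO group. The totals of the groups overlapped (exact permutation test, two-sided, p = 0.3; 3 against 3 can reach 0.1). Keratins typical of epithelium (KRT8, KRT18, KRT19) were present at 1221 to 1350.2 CPM (counts scaled to a normalised library total of 1000000) when summed with KRT7, EPCAM and CDH1 in Myrrh libraries and at 1743 to 1832 CPM in DMSO libraries. KRT7 and EPCAM went the other way from this sum. KRT7 averaged 3.15 CPM with Myrrh and 2.18 CPM with DMSO, and EPCAM 2.28 and 1.04 CPM. CDH1 had 27 counts over all libraries and was not tested. Stromal markers, 7 of 7 detected, summed to 3103 to 3260 CPM with Myrrh and 9161 to 9443 CPM with DMSO, a difference carried mostly by COL1A1. CDH2 alone of these was higher with Myrrh, at 195.9 CPM on average against 164.9 CPM with DMSO. Leukocyte markers summed to 50.9 to 63.2 CPM with Myrrh and 31.7 to 32.7 CPM with DMSO; CD68 made up most of this, and CD3E was at 0 in all libraries. Endothelial markers stayed at 0.8 CPM or less in sum, with CDH5 at 0. Their part in the results on host genes was not tested. In bulk RNA, fewer cells that use a gene and less of its RNA per cell cannot be told apart.

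Of the 29 snoRNA hosts 26 passed the filter on low counts and were tested, and of the 73 microRNA hosts 29. With Myrrh, 13 snoRNA hosts rose and 11 fell at an adjusted p under 0.05 (edgeR's quasi-likelihood F-test, Benjamini-Hochberg over 16395 genes), and 2 did not pass. This is 50% higher and 42.3% lower, where 39.3% of all tested genes were higher and 39.1% lower. Among microRNA hosts 4 rose, 19 fell and 6 did not pass, that is 13.8% higher and 65.5% lower. Long noncoding genes outside both classes gave shares near those of the microRNA hosts, with 70.5% of 2233 called, 12.6% higher and 57.9% lower. In all, 78.4% of tested genes were called, so a call by itself says little about a host, and sizes and directions are given throughout. The difference between the host classes was not tested.

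The median log2 fold change, Myrrh over DMSO, was 0.02 over the tested snoRNA hosts and −0.87 over the tested microRNA hosts. It was −0.02 over all tested genes and −0.82 over the other long noncoding genes. The snoRNA host median changes sign when libraries are scaled by their totals, to −0.12, but that scaling also moves the median of all genes to −0.16. The range ran from −2.37 to 1.40 for snoRNA hosts and from −3.67 to 2.24 for microRNA hosts. At least 2-fold changes were counted for 3 snoRNA hosts upward and 10 downward, and for 3 microRNA hosts upward and 11 downward. Of all tested genes 11.3% were at least 2-fold higher and 18.0% at least 2-fold lower.

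**Figure D1:**
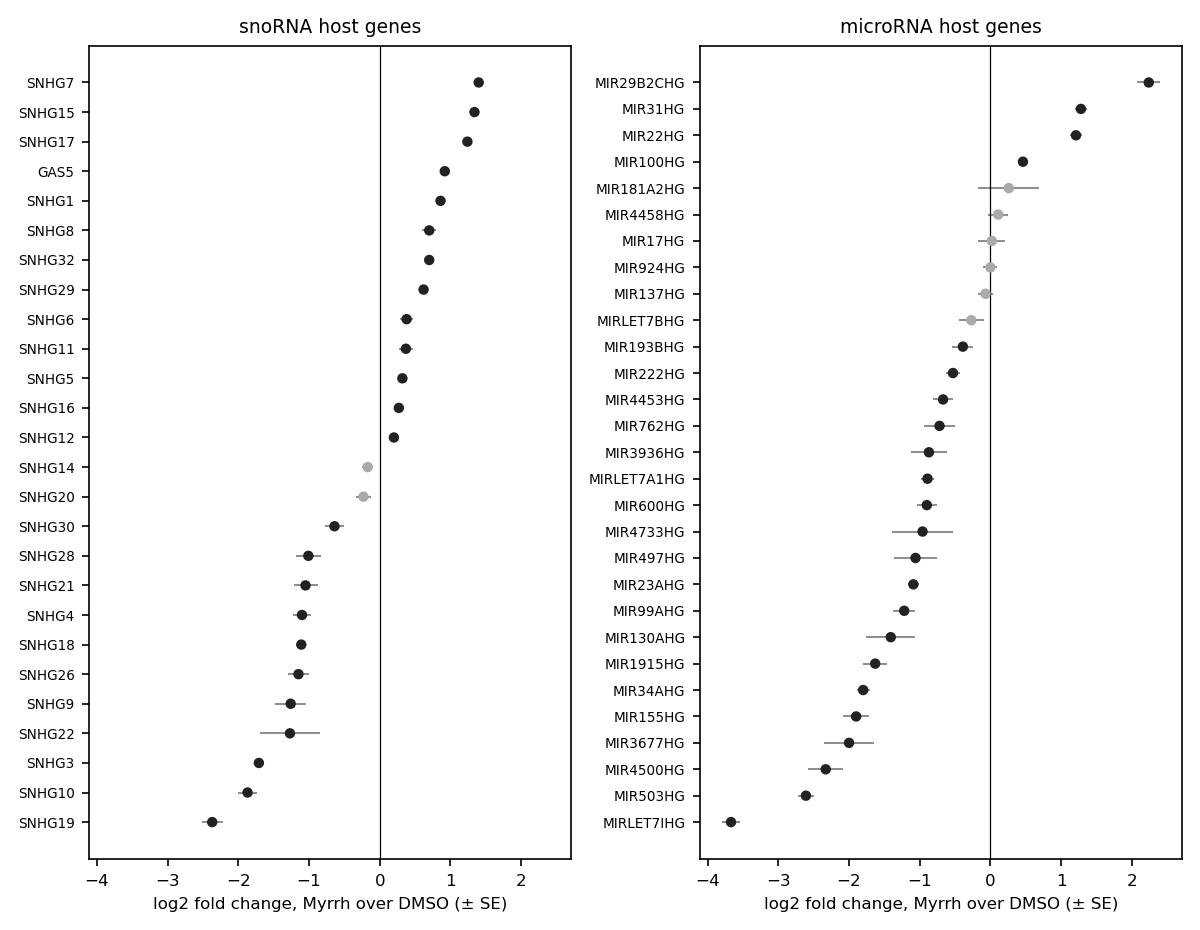
Log2 fold change, Myrrh over DMSO, with its standard error for the 26 tested snoRNA host genes (left) and the 29 tested microRNA host genes (right), sorted by value; black points passed an adjusted p of 0.05 and grey points did not. snoRNA hosts run from SNHG7 at 1.40 to SNHG19 at −2.37, and microRNA hosts from MIR29B2CHG at 2.24 to MIRLET7IHG at −3.67.

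The 3 libraries of each group were apart for most called hosts. All Myrrh values lay above all DMSO values for 13 snoRNA hosts and 4 microRNA hosts, and below them for 11 and 18, where 40.1% of all tested genes were apart upward and 40.2% downward. MIR3936HG was called lower with overlapping groups.

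Summed over each class, snoRNA hosts made up 1649, 1757 and 1624 CPM in the Myrrh libraries, against 1145, 1138 and 1123 CPM in the DMSO libraries. The microRNA hosts summed to 235, 241 and 213 CPM with Myrrh, against 307, 306 and 291 CPM with DMSO. The sums thus moved in opposite directions with no overlap between groups. SNHG29, GAS5 and SNHG1 carried 56.7% of the snoRNA host sum in Myrrh libraries and 48.4% in DMSO libraries.

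snoRNA hosts with more counts mostly rose and those with fewer mostly fell. Of the 14 with a mean of at least 20 CPM over all libraries, 11 rose, 2 fell (SNHG3 and SNHG18) and SNHG14 did not pass, with a median log2 fold change of 0.50. Of the 12 below 20 CPM, 2 rose (SNHG8 and SNHG11), 9 fell and SNHG20 did not pass (−0.23), with a median of −1.07. SNHG20 passes as lower without DMSO replicate 2 (−0.28) or Myrrh replicate 1 (−0.36). The same holds with library totals (−0.37) and with a filter of at least 1 CPM in 3 libraries (−0.27). The shares over all genes also differed with level: at 20 CPM or more 85.4% were called, 52.1% higher and 33.3% lower, and below it 71.1% were called, 25.9% higher and 45.2% lower. Only 3 microRNA hosts reached 20 CPM, so the classes can be set side by side mainly below that level, where 17 of 26 microRNA hosts fell and 3 rose.

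**Figure D2:**
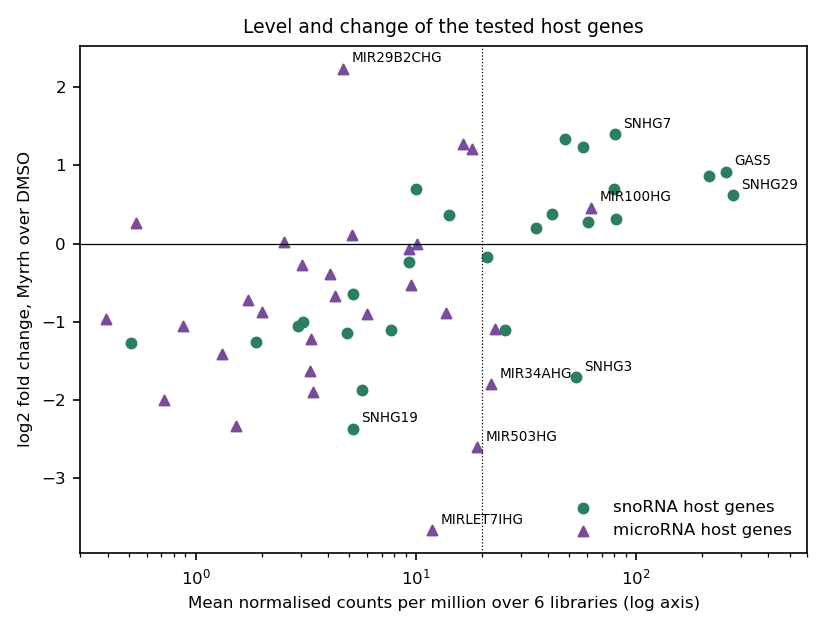
Mean level over 6 libraries (CPM, log axis) against log2 fold change, Myrrh over DMSO, for the 55 tested host genes; circles are snoRNA hosts, triangles microRNA hosts and the dotted line is at 20 CPM. To the right of the line 11 of 14 snoRNA hosts lie above 0 as called genes, and to its left 9 of 12 lie below 0 as called genes.

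The strongest rises among snoRNA hosts were in SNHG7, SNHG15 and SNHG17, which all carry H/ACA box RNAs. SNHG7 (ENSG00000233016, chromosome 9, 136721366 to 136728184), host of SNORA17A and SNORA17B, had 110.2, 129 and 111 CPM in Myrrh libraries, against 45.5, 44.7 and 43.0 CPM in DMSO libraries. Every Myrrh value was above every DMSO value, and the log2 fold change was 1.40 ± 0.06 (SE, adjusted p = 7.83e-17, edgeR). DIPK1B, which overlaps SNHG7 on the opposite strand, fell, with a log2 fold change of −1.21.

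SNHG15 (ENSG00000232956, chromosome 7, 44983023 to 44986961), host of SNORA9, had 67.1, 68.2 and 69.8 CPM with Myrrh, against 28.6, 27.2 and 25 CPM with DMSO. The groups did not overlap and the log2 fold change was 1.34 ± 0.06 (adjusted p = 7.78e-17, edgeR). SNHG17, host of the SNORA71 family, had 77.6, 79.4 and 84.9 CPM with Myrrh, against 35.1, 33.4 and 33.9 CPM with DMSO. It was again higher in every Myrrh library, by 1.24 ± 0.06 on the log2 scale.

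GAS5 (ENSG00000234741, chromosome 1, 173863900 to 173868882), a host of C/D box snoRNAs known to accumulate when growth stops, had 335, 355 and 324 CPM with Myrrh, against 180.3, 177 and 178 CPM with DMSO. The lowest Myrrh library was well above the highest DMSO library, and the log2 fold change was 0.92 ± 0.05 (adjusted p = 2.29e-14, edgeR). Its antisense gene GAS5-AS1 fell by 1.25 on the log2 scale, and ZBTB37, which also overlaps on the other strand, had 22.1 CPM with Myrrh and 22.2 CPM with DMSO.

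SNHG1, the host of SNORD22 and SNORD25 to SNORD30, had 267, 299 and 264 CPM with Myrrh, against 154, 156 and 147 CPM with DMSO. The groups were apart, with a log2 fold change of 0.86 ± 0.06. SNHG1 starts 188 bases from SLC3A2, an amino acid transporter subunit read in the opposite direction, which rose by 4.25 on the log2 scale.

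SNHG29 and SNHG32 carry C/D box RNAs and have a CTTTT run within 10 bases of the RefSeq start. SNHG29, which drew the most counts of all members over the 6 libraries together, had 336, 338 and 332 CPM with Myrrh, against 215, 216 and 226 CPM with DMSO. SNHG32 had 97.8, 103 and 95.9 CPM with Myrrh, against 61.7, 59.0 and 61.7 CPM with DMSO. Both were higher in all 3 Myrrh libraries, by 0.62 ± 0.05 and 0.70 ± 0.05 on the log2 scale. HSPA1B, which ends 4353 bases upstream of SNHG32 on the same strand and encodes a heat shock protein, rose by 6.02 on the log2 scale, and AL671762.1, which overlaps SNHG32 on its strand, by 1.34.

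The other snoRNA hosts at 20 CPM or more that rose did so by less. SNHG6, host of SNORD87, had 47.9, 54.1 and 40.1 CPM with Myrrh, against 36.2, 38.3 and 34.4 CPM with DMSO. SNHG5, host of SNORD50B, had 83.6, 102 and 85.7 CPM with Myrrh, against 73.7, 72.7 and 70.5 CPM with DMSO. In both genes the second Myrrh library was the highest and the groups were apart, at log2 fold changes of 0.38 ± 0.09 and 0.32 ± 0.06.

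SNHG16, host of SNORD1A to SNORD1C, had 65.1, 69.2 and 64.6 CPM with Myrrh, against 56.0, 53.0 and 56.1 CPM with DMSO (log2 fold change 0.27 ± 0.06). SNHG12, host of H/ACA and C/D box RNAs, had 37.3, 38.0 and 37.4 CPM with Myrrh, against 33.0, 34.0 and 31.0 CPM with DMSO (0.20 ± 0.06). The groups were apart in both, but the SNHG12 call is lost when libraries are scaled by their totals, where its log2 fold change is 0.06. SNHG14, the very long transcript that holds the snoRNA clusters of the Prader-Willi region and runs antisense to UBE3A, had 22, 20.9 and 17.1 CPM with Myrrh, against 23.0, 23.0 and 21.4 CPM with DMSO. Its groups overlapped and it did not pass (−0.17 ± 0.08, adjusted p = 0.0688, edgeR), although it passes without Myrrh replicate 1 (−0.23). SNHG14 also passes as lower with library totals (−0.31), with a filter of at least 1 CPM in 3 libraries (−0.21) and on the log2(TPM + 1) scale (−0.28). On its strand SNRPN rose by 0.45 and on the other strand UBE3A rose by 0.74 on the log2 scale.

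SNHG3 went the other way. This host of SNORA73A and SNORA73B (ENSG00000242125, chromosome 1, 28505980 to 28510892) had 27.2, 24.5 and 23.3 CPM with Myrrh, against 83.3, 83.6 and 79.6 CPM with DMSO. Every Myrrh library was below every DMSO library, and the log2 fold change was −1.71 ± 0.06 (adjusted p = 8.43e-19, edgeR). RCC1, which overlaps SNHG3 on the same strand and encodes a chromatin-bound exchange factor, had 89.2 CPM with Myrrh and 93.1 CPM with DMSO and did not pass. SNHG18, host of SNORD123, had 15, 18.0 and 15.7 CPM with Myrrh, against 34.2, 35.1 and 35.3 CPM with DMSO, again with no overlap (−1.11 ± 0.07).

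SNHG19 had the largest fold change of the class. This short host of SNORD60 (ENSG00000260260, chromosome 16, 2154797 to 2155358) had 1.38, 2.06 and 1.60 CPM with Myrrh, against 8.97, 8.95 and 8.15 CPM with DMSO. The groups were far apart, with a log2 fold change of −2.37 ± 0.15 (adjusted p = 1.51e-13, edgeR). TRAF7, read from a start 340 bases away in the opposite direction, did not pass (0.05).

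**Figure D3:**
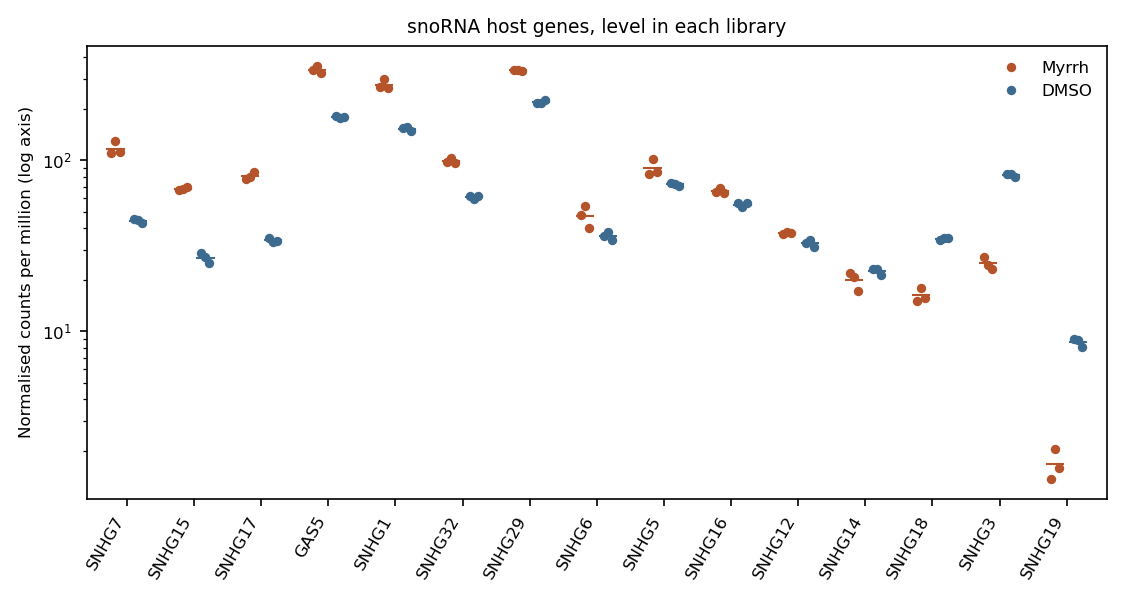
Level in CPM (log axis) of the 14 snoRNA hosts at 20 CPM or more and of SNHG19 in each library, Myrrh left and DMSO right for each gene, with bars at the means of 3. SNHG7 sits at 110.2 to 129 CPM with Myrrh and 43.0 to 45.5 CPM with DMSO, and SNHG3 at 23.3 to 27.2 CPM with Myrrh and 79.6 to 83.6 CPM with DMSO.

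Among the snoRNA hosts below 20 CPM, SNHG8, host of SNORA24, rose by 0.70 on the log2 scale and SNHG11, host of SNORA60, by 0.37. The 9 that fell included SNHG10 (−1.87), SNHG9 (−1.26), SNHG26 (−1.15), SNHG4 (−1.10), SNHG28 (−1.01) and SNHG30 (−0.64). SNHG22 had 20 counts in all with Myrrh and 58 with DMSO, and its call (−1.27 ± 0.42, adjusted p = 0.00744, edgeR) is lost without Myrrh replicate 3 (−0.95, adjusted p = 0.0603), while without Myrrh replicate 2 its log2 fold change is −2.0. Some of these share a locus with other genes that changed. SNHG28 overlaps a gene that GENCODE 29 also names SNHG28 (ENSG00000256029, with no symbol in the deposited table) on the same strand, which fell by 2.22, and AL590560.1 on the opposite strand, which fell by 2.48 on the log2 scale. SNHG21, which fell, overlaps AC105339.2 on the same strand, which fell by 1.10. SNHG9 starts 99 bases from the ribosomal protein gene RPS2, which rose by 0.32, and SNHG4 overlaps SIL1 on the opposite strand, which rose by 1.34 on the log2 scale. MATR3 (ENSG00000280987), which overlaps SNHG4 on the same strand, rose by 3.23, at 7.38 CPM with Myrrh and 0.759 CPM with DMSO.

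Hosts were also counted by the kind of small RNA annotated within them. Of 12 tested hosts of C/D box RNAs 7 were higher (58.3%), 4 lower (33.3%) and 1 not called. Hosts of H/ACA box RNAs numbered 9, with 6 higher (66.7%) and 3 lower (33.3%), and SNHG12 counts in both. Of all tested genes 39.3% were higher and 39.1% lower, and of those at 20 CPM or more 52.1% and 33.3%. The 4 hosts of scaRNAs (SNHG10, SNHG20, SNHG21 and SNHG22) had none higher and 3 lower, and all 4 were below 20 CPM. Below that level 25.9% of all tested genes were higher and 45.2% lower. GAS5 is in none of these counts because GENCODE 29 places no snoRNA in it. SNHG28, which fell, is in none either, as the small RNA placed in it has no name of these kinds.

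A CTTT run within 10 bases of the RefSeq start was found in 8 of the 23 tested snoRNA hosts with a promoter in the table (34.8%), in 7 of 28 tested microRNA hosts (25%) and in 9.06% of 35093 RefSeq promoters. For the longer run CTTTT it was 5 of 23, beside 2.62% of all promoters and 0 of 28 tested microRNA hosts. The CTTTT hosts were SNHG5, SNHG16, SNHG29 and SNHG32, which rose, and SNHG19, which fell. SNHG7, GAS5, SNHG1 and SNHG17, also higher, had no CTTT in that window. The runs were read on the transcribed strand, and CTTTT is a part of the CTTT matches. For each host only the first promoter listed was searched, here and for the motifs below. The 35093 promoters can include several of a gene. A match describes letters only, and the RefSeq and GENCODE 29 starts differ for several hosts, GAS5 and SNHG12 among them.

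In the 250 bases before to 50 bases after the start, searched on both strands, a heat shock element (GAA, TTC and GAA, each 2 bases from the next) was found in GAS5, in MIR497HG and in 0.49% of all promoters. The amino acid response form TGATGNAAT was found in none of the 23 snoRNA hosts, in MIR99AHG among the microRNA hosts, and in 0.992% of all promoters. The E-box CACGTG was found in 2 of 23 snoRNA hosts, SNHG7 and SNHG30, beside 7.26% of all promoters. The antioxidant response form TGACNNNGC was found in 2 of 23 snoRNA hosts, SNHG4 and SNHG20, in 4 of 28 microRNA hosts and in 13.4% of all promoters. On the transcribed strand, TATAAA within 40 bases before the start was found in SNHG7 and SNHG19, in none of the 28 microRNA hosts and in 2.44% of all promoters.

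For some snoRNA hosts the deposited TPM moved more than the counts. SNHG15 averaged 99.3 ± 1.82 TPM with Myrrh and 23.7 ± 1.10 TPM with DMSO (SD, n = 3 each), a wider gap than its counts gave. SNHG12 averaged 82.3 ± 2.15 TPM with Myrrh and 48.8 ± 1.60 TPM with DMSO, although its counts differed little. GAS5 averaged 928 ± 28.5 TPM with Myrrh and 369 ± 11.6 TPM with DMSO. TPM divides by an effective length that RSEM averages over a gene's isoforms, so the number of counts behind 1 TPM follows the mix of isoforms assigned.

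Counts per TPM unit, set to 1 at the median gene of each library, were therefore fitted across 14350 genes with at least 10 counts in every library (limma). This fit was added after the data had been seen. Of 25 snoRNA hosts in it 7 were called lower and 1 higher, and of 25 microRNA hosts 2 lower and 1 higher. Of all fitted genes 12.8% were called in either direction and 6.79% lower.

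The 7 lower snoRNA hosts were SNHG15, SNHG12, SNHG17, GAS5, SNHG11, SNHG1 and SNHG16, all of them hosts whose counts rose. SNHG15 had 0.454, 0.424 and 0.443 with Myrrh, against 0.713, 0.685 and 0.690 with DMSO, without overlap (log2 difference −0.66 ± 0.03, adjusted p = 0.00217, limma). GAS5 had 0.236, 0.229 and 0.233 with Myrrh, against 0.298, 0.298 and 0.292 with DMSO (−0.35 ± 0.02). SNHG12 had 0.294, 0.287 and 0.294 with Myrrh, against 0.403, 0.428 and 0.403 with DMSO (−0.49 ± 0.03). In all 3 the isoforms credited with reads were shorter on average in every Myrrh library. SNHG29 and SNHG7 did not pass, at log2 differences of 0.01 and −0.06. With 1 library left out, 5 or 6 snoRNA hosts were called lower, depending on the library. Which isoforms gained reads is not in the gene-level tables.

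**Figure D4:**
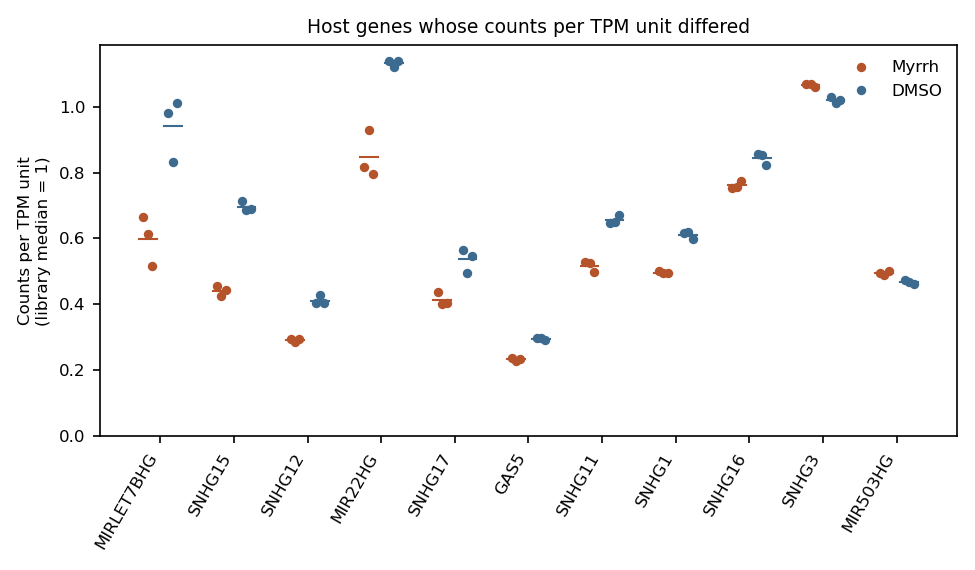
Estimated counts per TPM unit (1 is the median gene of the library) in each library for the 11 host genes at an adjusted p under 0.05, Myrrh left and DMSO right for each gene, with bars at the means of 3. SNHG15 averages 0.440 with Myrrh and 0.696 with DMSO, and GAS5 0.233 with Myrrh and 0.296 with DMSO.

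Among microRNA hosts the let-7i host fell most. MIRLET7IHG (ENSG00000257354, chromosome 12, 62602752 to 62622213) had 2.31, 1.57 and 1.27 CPM with Myrrh, against 22.2, 22 and 22.1 CPM with DMSO. All Myrrh values were far below the DMSO values, and the log2 fold change was −3.67 ± 0.13 (adjusted p = 7.5e-19, edgeR). AC048341.2, which overlaps it on the same strand, fell too (−4.67), and MON2, which ends 2273 bases upstream, did not pass (0.04).

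The other hosts of a GAGGUAG microRNA, whose sequences stand above, moved differently. MIR4500HG had 0.545, 0.448 and 0.517 CPM with Myrrh, against 2.69, 2.46 and 2.49 CPM with DMSO, with no overlap (−2.33 ± 0.25). MIR99AHG fell, at 1.93 to 2.11 CPM with Myrrh and 4.38 to 5.00 CPM with DMSO (−1.22 ± 0.16). MIRLET7BHG (−0.27 ± 0.18) and MIR4458HG (0.11 ± 0.14) did not pass, and their groups overlapped. MIRLET7BHG passes, as lower, without Myrrh replicate 2 (−0.43) and with library totals (−0.42). MIR100HG was the one that rose. MIRLET7A1HG, named for a let-7 gene that its GENCODE 29 span does not reach, fell by 0.89 on the log2 scale.

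MIR100HG and MIR99AHG lie on chromosomes 11 and 21 and carry sister clusters, each with a let-7, a miR-125b and a member of the miR-99/100 family. The miR-99/100 pair shares the seed ACCCGUA, shown in capitals.
MIR100HG, hsa-miR-100-5p, chr11:122152275-122152296, minus strand: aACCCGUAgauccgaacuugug
MIR99AHG, hsa-miR-99a-5p, chr21:16539101-16539122, plus strand: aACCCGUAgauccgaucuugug

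MIR100HG (ENSG00000255248), the member of the microRNA host class with the most counts, had 71.1, 76.9 and 69.3 CPM with Myrrh, against 52.6, 52.5 and 52.8 CPM with DMSO. It was higher in every Myrrh library, with a log2 fold change of 0.46 ± 0.06 (adjusted p = 2.8e-08, edgeR), while MIR99AHG was lower in every one. Per length, MIR100HG averaged 41.7 ± 2.89 TPM with Myrrh and 28.5 ± 1.21 TPM with DMSO (SD, n = 3 each). MIR99AHG averaged 3.61 ± 0.549 TPM with Myrrh and 6.24 ± 0.579 TPM with DMSO (SD, n = 3 each).

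MIR34AHG, host of miR-34a and a well-known target of p53, had 10.6, 10.8 and 8.08 CPM with Myrrh, against 33.8, 35.9 and 33.1 CPM with DMSO. The groups were apart (−1.80 ± 0.09, adjusted p = 8.97e-16, edgeR). MIR23AHG, host of miR-23a, miR-27a and miR-24-2, had 16.1, 14.9 and 12.7 CPM with Myrrh, against 32.6, 31.4 and 29.6 CPM with DMSO, also without overlap (−1.09 ± 0.08). ZSWIM4, on the opposite strand of MIR23AHG, rose by 0.92 on the log2 scale.

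MIR503HG, host of miR-503 on chromosome X (134543337 to 134546632), had 6.2, 5.65 and 4.18 CPM with Myrrh, against 34.3, 35.0 and 29.3 CPM with DMSO. Its Myrrh values were all below its DMSO values (−2.61 ± 0.11, adjusted p = 2.06e-14, edgeR). MIR155HG, host of the miR-155 of activated lymphocytes and macrophages, fell to 1.27 to 1.59 CPM with Myrrh, against 4.55 to 6.48 CPM with DMSO (−1.90 ± 0.18). The leukocyte marker PTPRC, with 51 counts over all libraries, was at 0.0737 CPM with Myrrh and 0.584 CPM with DMSO on average. CD68, the other leukocyte marker tested, went the other way, at 56.5 CPM with Myrrh and 31.6 CPM with DMSO.

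Of the 4 microRNA hosts that rose, MIR29B2CHG did so most. This host of miR-29b-2 and miR-29c (chromosome 1, 207801518 to 207879096) had 8.89, 6.90 and 7.52 CPM with Myrrh, against 1.43, 1.80 and 1.66 CPM with DMSO. The groups were apart (2.24 ± 0.16, adjusted p = 1.01e-12, edgeR). Its mature microRNAs share the seed AGCACCA, shown in capitals, and are known to repress collagen messenger RNAs.
MIR29B2CHG, hsa-miR-29b-3p, chr1:207802450-207802472, minus strand: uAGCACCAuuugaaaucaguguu
MIR29B2CHG, hsa-miR-29c-3p, chr1:207801865-207801886, minus strand: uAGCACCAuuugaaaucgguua

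MIR31HG, host of miR-31, had 21.5 to 25.9 CPM with Myrrh and 9.43 to 9.78 CPM with DMSO (1.28 ± 0.09). IFNE, an interferon gene that overlaps it on the same strand, did not pass (−0.27). MIR22HG, host of miR-22, had 22.9 to 27.1 CPM with Myrrh and 10.5 to 11.2 CPM with DMSO (1.21 ± 0.08). Neither gene's groups overlapped. WDR81, which overlaps MIR22HG on the opposite strand, had 24.8 CPM with Myrrh and 27.0 CPM with DMSO and did not pass.

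**Figure D5:**
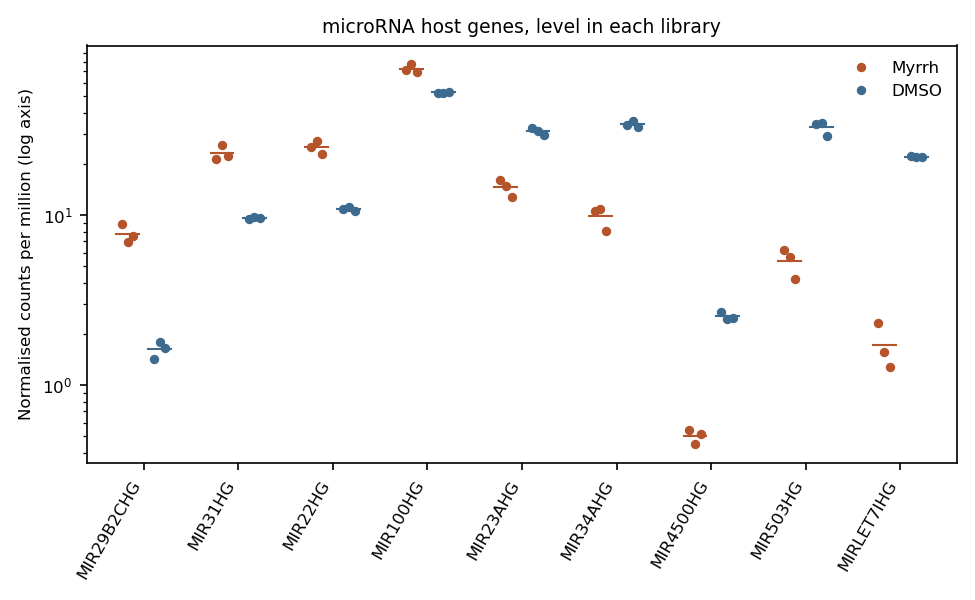
Level in CPM (log axis) in each library of the 4 microRNA hosts that rose and of the 5 that fell and either reach 20 CPM or changed by at least 2 on the log2 scale at a mean of at least 1 CPM, Myrrh left and DMSO right for each gene, with bars at the means of 3. MIR29B2CHG lies at 6.90 to 8.89 CPM with Myrrh and 1.43 to 1.80 CPM with DMSO, and MIRLET7IHG at 1.27 to 2.31 CPM with Myrrh and 22 to 22.2 CPM with DMSO.

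The remaining called microRNA hosts fell, all of them below 20 CPM. MIR1915HG (−1.63), MIR130AHG (−1.41), MIR497HG (−1.06), MIR600HG (−0.90), MIR3936HG (−0.87), MIR762HG (−0.72) and MIR4453HG (−0.67) kept their calls with any 1 library left out. The size for MIR130AHG depends on the Myrrh libraries, at −2.13 without Myrrh replicate 1 and −1.04 without Myrrh replicate 3. MIR222HG, host of miR-221 and miR-222, fell by 0.53 on the log2 scale, and MIR3677HG, at 0.717 CPM on average, by 2.0. MIR193BHG (−0.39, adjusted p = 0.0187, edgeR) loses its call when DMSO replicate 1 or Myrrh replicate 2 or 3 is left out, at −0.30 to −0.37, and in DESeq2's Wald test (adjusted p = 0.059). It has the opposite direction on the log2(TPM + 1) scale (0.45, adjusted p = 0.0332, limma). Its counts per TPM unit averaged 0.775 with Myrrh and 1.55 with DMSO and did not pass (adjusted p = 0.0506, limma). MIR4733HG (−0.96 ± 0.43, adjusted p = 0.0428, edgeR) loses its call without DMSO replicate 1 or 3 or Myrrh replicate 2 or 3, at −0.71 to −1.04, in DESeq2's Wald test (adjusted p = 0.158) and with no filter on low counts (adjusted p = 0.107, edgeR).

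Hosts that did not pass include MIR17HG, host of the miR-17-92 cluster of proliferating cells, at 2.16 to 3.02 CPM with Myrrh and 2.38 to 2.57 CPM with DMSO (0.02 ± 0.19). MIR924HG (0.00 ± 0.10), MIR137HG (−0.07 ± 0.10) and MIR181A2HG (0.26 ± 0.43) also did not pass, the last with 40 counts in each group and a pass only without DMSO replicate 2 (1.10). Groups overlapped in all 4.

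The 3 untested snoRNA hosts were SNHG25, SNHG27 and SNHG31, with at most 26 counts over all libraries. Of the 44 untested microRNA hosts 27 had no count in any library and 17 had some, at most 31.2 in total. MIR378D2HG had 0 counts in every Myrrh library, against 5, 5 and 4 counts in DMSO libraries, and was not tested. A count of 0 allows up to 0.126 to 0.141 CPM in a Myrrh library (3 counts), which covers counting error only.

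The small RNAs themselves were hardly counted. GENCODE 29 places 140 small RNA genes within the snoRNA hosts on their strand; 127 were at 0 in all libraries and 1 was tested. That one, SNORA73B within SNHG3, had 17, 10 and 1 counts with Myrrh, against 6, 30 and 10 counts with DMSO, with overlapping groups. All 123 small RNA genes within microRNA hosts were at 0. Levels of mature snoRNAs and microRNAs were therefore not measured here.

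Genes that act with these RNAs were read in the same fit, beside the 39.3% higher and 39.1% lower of all tested genes, or 52.1% higher and 33.3% lower of those at 20 CPM or more, where most of the genes in these lists lie. Of 20 genes for snoRNA-protein particles and their assembly, 18 rose (90%) and 1 fell (5%), with a median log2 fold change of 0.55. NUFIP1 (1.36) and NOP58 (1.22), an assembly factor and a core protein of C/D particles, rose most, and PIH1D1, a cochaperone subunit, fell by 0.42. Of 15 microRNA processing genes 4 rose (26.7%) and 8 fell (53.3%), with a median of −0.22. AGO2 (0.68) and AGO3 (0.61), which bind mature microRNAs, rose most, while DDX17 (−1.45), a helicase of the Microprocessor, and AGO4 (−1.0) fell most. Of 17 genes of nonsense-mediated decay 10 rose (58.8%) and 4 fell (23.5%), shares near those of genes at 20 CPM or more (median 0.19), with SMG8 at 1.09, MAGOHB at 0.99, UPF3A at −0.63 and PNRC2 at −0.15.

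Hosts outside the naming rule can be set beside the same shares over all genes. Of 20 other genes with intronic snoRNAs 15 rose (75%) and 2 fell (10%), with a median of 0.61. HSPA8 (2.46) and HSPA9 (1.83), heat shock family chaperones, were the highest, and NAP1L4 (−0.52) and SF3B3 (−0.19) the lowest. ZFAS1, a noncoding host of C/D box RNAs, had 182 ± 11.0 CPM with Myrrh and 55.5 ± 1.42 CPM with DMSO (SD, n = 3 each). Of 20 other genes with intronic microRNAs 7 rose (35%) and 11 fell (55%), with a median of −0.40. MIR4435-2HG, kept out of the members by its hyphen, rose by 0.27, at 81.9 CPM with Myrrh and 67.8 CPM with DMSO. It drew 10959 counts over all libraries, more than MIR100HG with 9115. PANK3 (0.74) and COPZ1 (0.54) were the highest, and MEST (−2.0), host of miR-335, and CTDSP1 (−1.92), host of miR-26b, the lowest. These lists were chosen with earlier results known and were not tested as sets.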

How the data were processed

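Per the labels' protocols, total RNA of 12Z cells was extracted with a column kit and sequenced from TruSeq RNA libraries. The submitters' processing notes name STAR, RSEM 1.3.1 and GRCh38; the strand setting and annotation release were each not given in the sources used here. Reads of a host and of an overlapping gene may thus not be fully separated. The authors deposited RSEM estimated counts per gene and a second table of log2(TPM + 1). In each library 29.7% to 30.3% of the estimated counts above 0 were not whole, since RSEM splits shared reads; 7 of 26 tested snoRNA hosts and 21 of 29 tested microRNA hosts had whole counts in all libraries.

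Counts were rounded, filtered with filterByExpr, scaled with TMM and tested with edgeR 4.0.16 (quasi-likelihood F-test, two-sided, Benjamini-Hochberg over 16395 genes, threshold 0.05; R 4.3.3). CPM use TMM-scaled library sizes; SE is the log2 fold change over the square root of F, and ± without another label is SE. Counts per TPM unit were fitted with limma 3.58.1. The tests were checked on simulated data. Annotation came from GENCODE 29 by identifier (101 of 102 members matched); promoters and microRNAs came from RefSeq (GRCh38.p14), with promoters for 23 and 28 tested hosts of the classes. The members and the lists of companion genes were chosen with earlier results of these data known. Values in all 6 libraries are given for tested members with a mean of at least 20 CPM, or called with an absolute log2 fold change of at least 2 and at least 1 CPM. Companion lists give up to 2 called members at each end. ZFAS1, MIR4435-2HG, MIR378D2HG, neighbouring and overlapping genes were named after their values were seen. Within groups, chi-square values of 3.65 to 8.71 per degree of freedom showed no library deposited more than once.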

Additional observations from a re-analysis of the deposited data

How the results depend on the processing

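Of the 55 tested hosts, 34 kept direction and call under each of the 14 other settings that gave them a value: DESeq2 size factors in edgeR, library totals, DESeq2's Wald test, no filter on low counts, at least 1 CPM in 3 libraries, limma on log2(TPM + 1), a test against a log2 change of 0.5 (glmTreat), a replicate block and each library left out. At 1 CPM 51 of the 55 had a value; MIR3677HG, among the 34, had none there. Against 0.5, 7483 genes were called in place of 12854, and 8 snoRNA hosts in place of 13 were higher, as that test asks for a larger change. The snoRNA host median was −0.12 with library totals, −0.19 with no filter (which adds genes of few counts), 0.16 at 1 CPM and −0.02 to 0.08 with 1 library left out; no direction can be given for a median this near 0. The microRNA host median was −1.01 with library totals, −0.45 on the log2(TPM + 1) scale, which shrinks changes of low genes (MIRLET7IHG −1.77, MIR29B2CHG 0.58), and −0.82 to −0.71 with 1 library left out.

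Direction turned for 7 hosts. With library totals these were MIR17HG (−0.12), MIR4458HG (−0.03) and MIR924HG (−0.14). On the log2(TPM + 1) scale they were MIR137HG (0.11), MIR17HG (−0.16), MIR193BHG (0.45) and MIRLET7BHG (0.31); counts per TPM unit were lower with Myrrh in MIRLET7BHG (−0.66 on the log2 scale, adjusted p = 0.0361, limma). At 1 CPM they were MIR17HG (−0.02) and MIR924HG (−0.04), and in DESeq2 MIR924HG (0.00). With 1 library left out they were MIR17HG (−0.13 to 0.13), MIR924HG (−0.05 to 0.05), MIR137HG (−0.12 to 0.04) and MIR181A2HG (−0.05 to 1.10). Of these only MIR193BHG was called in the first place, and the causes were not tested. The replicate numbers did not pair the libraries (correlations of same-numbered deviations −0.0596, −0.00454 and 0.0361); with the replicate block 12782 genes were called, SNHG14 (−0.17) and SNHG20 (−0.24) passed as lower and MIR4733HG did not pass. Hosts under 1 CPM rest on few counts, and depth limits what can be said of them.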
